A study of Mus musculus with 3 samples.

Results

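Ptf1a, Rbpjl, Bhlha15, Nr5a2 and Gata4 are transcription factors of the pancreatic acinar cell, the cell that makes and secretes digestive enzymes. They were taken by symbol, with earlier results of these data known, and are 5 of the 31053 genes in the count tables. They were followed in single cells of 3 mouse pancreatic tumours. The donor cells came from Msi2-Myc; R26-LSL-tdTomato mice, whose series title names the allele MycT58A behind Musashi2-CreER. Tamoxifen acts through CreER of the Msi2 line, so MYC and the red reporter tdTomato came on where Msi2 is active. At 5 weeks after tamoxifen, tdTomato-positive epithelial cells were sorted and placed into the pancreas of NSG mice, hosts that lack an adaptive immune system. EpCAM-positive (epithelial) cells were sorted from the end-stage tumours for droplet sequencing of transcript 3' ends with unique molecular identifiers (UMIs). The series asked whether transcriptionally uncommitted cells give several tumour subtypes, and its title names ASCP, PDAC and ACC. All 3 samples carry the same genotype, treatment and cell labels, so they formed 1 group of 3 tumours, none was given a subtype, and tumours were not tested against each other. No normal pancreas and no tumour without MYC was analysed here.

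Ptf1a is a basic helix-loop-helix (bHLH) protein that pairs with an E protein and with Rbpjl, the acinar relative of the Notch effector Rbpj, to form the PTF1 complex. PTF1 binds an E-box beside an Rbpj-type box in front of digestive enzyme genes, among them in front of Rbpjl itself. Nr5a2, a nuclear receptor, acts with PTF1 at enzyme genes; Bhlha15 (Mist1), another bHLH factor, shapes the secretory machinery; Gata4 is a zinc finger factor of the early pancreas that other foregut epithelia also use.

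A barcode counted as a cell if it held at least 1000 UMIs from at least 500 genes with no more than 20% mitochondrial. All 1877, 641 and 3494 barcodes with 1000 or more UMIs in tumours 1, 2 and 3 also had 10 or more UMIs in another library, and a barcode was kept only where 60% or more of its UMIs lay in 1 library. This left 1431, 253 and 2804 cells with medians of 1621, 1333 and 1605.5 UMIs, and took away 122, 258 and 28 barcodes, so tumour 2 lost 50.5% of its candidates and rests on the fewest cells. A cell entered the acinar gate with 3 or more UMIs of Ctrb1 and Clps (chymotrypsinogen and colipase) and at least 3 times the summed UMIs of the other marker pairs. The ductal gate used Tff1 and Lgals4 and the squamous gate Krt5 and Krt14 in the same way; mixed cells reached 3 UMIs of a pair without passing a gate, and the rest had no gate. The acinar gate held 421, 52 and 1937 cells and the ductal gate 500, 105 and 300. Of the other acinar enzymes (Cpa1, Cela2a, Pnlip, Prss2, Cpb1 and Cel), acinar-gated cells held a mean of 4274 UMIs per 1000000 (CPM) and ductal-gated cells 121. Of the ductal markers Krt19, Tff2, Anxa10, Muc1, Krt7 and Agr2, acinar-gated cells held 2040 CPM and ductal-gated cells 7920. Summed over each list, markers of fibroblasts, endothelium, myeloid cells, plasma cells, mesothelium, endocrine cells, hepatocytes and erythroid cells averaged at most 8.65 CPM in acinar-gated cells and at most 58.9 CPM in ductal-gated cells, the highest in both being the mesothelial list, of which Upk3b was at 0 in all 6 sums. Barcodes rich in Gm42418, AY036118, Gm26917 and Lars2, here called the ribosomal RNA locus genes, differed between the gates. Those with 10% or more of their UMIs from these genes made up 29.0%, 5.77% and 68.3% of acinar-gated cells and 3.60%, 8.57% and 0% of ductal-gated cells.

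The promoters are shown because Ptf1a, Rbpjl, Nr5a2 and Bhlha15 were higher in the same gate and because PTF1 is known to act on a paired motif. RefSeq gave windows for 4 of the 5 genes (GRCm38.p6), each from 250 bases before to 50 bases after a start. Capitals mark the motifs searched on both strands: the E-box CANNTG, the Rbpj-type box TGGGAA, the NR5A box AAGGTCA and the GATA box AGATAA. Windows are chr2:19445413-19445712 (+) for Ptf1a, chr2:164402944-164403243 (+) for Rbpjl, chr5:144190036-144190335 (+) for Bhlha15, and chr1:136960399-136960698 (-) and chr1:136953581-136953880 (-) for 2 starts of Nr5a2, each read 5' to 3' on its gene's strand.
Ptf1a: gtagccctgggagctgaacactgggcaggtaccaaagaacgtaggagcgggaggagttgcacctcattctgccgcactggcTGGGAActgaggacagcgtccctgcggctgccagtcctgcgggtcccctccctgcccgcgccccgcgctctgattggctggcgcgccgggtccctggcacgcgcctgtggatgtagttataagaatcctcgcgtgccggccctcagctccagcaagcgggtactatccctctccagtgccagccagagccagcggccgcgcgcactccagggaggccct
Rbpjl: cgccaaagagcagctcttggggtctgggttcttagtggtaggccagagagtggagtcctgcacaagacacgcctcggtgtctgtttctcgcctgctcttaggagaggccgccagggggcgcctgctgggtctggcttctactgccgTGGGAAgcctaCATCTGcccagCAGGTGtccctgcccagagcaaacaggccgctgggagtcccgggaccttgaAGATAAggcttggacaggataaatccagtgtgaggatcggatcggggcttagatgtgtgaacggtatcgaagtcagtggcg
Bhlha15: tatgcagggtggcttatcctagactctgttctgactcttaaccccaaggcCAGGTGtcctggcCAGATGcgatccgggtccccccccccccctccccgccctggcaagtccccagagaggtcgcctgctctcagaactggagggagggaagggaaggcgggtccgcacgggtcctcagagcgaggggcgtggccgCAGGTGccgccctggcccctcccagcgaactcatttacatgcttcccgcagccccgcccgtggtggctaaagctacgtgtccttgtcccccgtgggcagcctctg
Nr5a2 outer start: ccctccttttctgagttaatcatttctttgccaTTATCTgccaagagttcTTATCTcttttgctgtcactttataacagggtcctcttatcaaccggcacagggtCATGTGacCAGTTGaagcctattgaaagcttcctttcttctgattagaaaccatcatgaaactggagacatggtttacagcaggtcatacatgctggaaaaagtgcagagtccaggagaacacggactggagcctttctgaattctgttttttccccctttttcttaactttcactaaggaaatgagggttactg
Nr5a2 inner start: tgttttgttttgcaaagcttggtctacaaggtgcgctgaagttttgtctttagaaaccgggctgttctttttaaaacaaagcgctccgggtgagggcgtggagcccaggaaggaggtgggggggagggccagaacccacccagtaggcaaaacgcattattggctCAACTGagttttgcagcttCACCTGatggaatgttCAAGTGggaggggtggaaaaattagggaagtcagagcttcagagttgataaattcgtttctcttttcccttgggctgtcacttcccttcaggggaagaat

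The Rbpjl window held the paired motif. Its TGGGAA began 104 bases upstream of the start, with the E-box CATCTG 5 bases beyond it and the E-box CAGGTG 16 bases beyond it, and AGATAA lay 31 bases upstream. The Ptf1a window held TGGGAA 169 bases upstream and 0 E-boxes. Bhlha15 had 3 E-boxes, the inner Nr5a2 start 3, and the outer Nr5a2 start 2 E-boxes with 2 GATA boxes on the opposite strand. Of 32851 mouse promoter windows of the same length, 72.3% held an E-box, 25.6% the Rbpj-type box, 11.2% the GATA box, 4.72% the NR5A box, and 5.21% an E-box within 20 bases of an Rbpj-type box. No motif match overlapped another in these 5 windows. A match is a description of letters and not a measured binding site.

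Ptf1a, Rbpjl, Nr5a2 and Bhlha15 were higher in acinar-gated than in ductal-gated cells of all 3 tumours, and Gata4 did not pass the test. For Nr5a2 and Bhlha15 the counting interval of the tumour 2 ratio included equal levels. UMIs were summed per tumour and gate and given as CPM, and differences were tested by edgeR's quasi-likelihood method in a fit that blocks on tumour, with p-values adjusted over all genes by Benjamini-Hochberg. Of 7847 genes tested, 17.5% were higher in acinar-gated cells and 18.1% lower. The first 4 factors passed the filter on low counts through the acinar-side sums alone, so their number among the calls is no evidence in itself. UMIs at the 3' end are not scaled to transcript length, so levels are compared between groups and not between genes.

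Ptf1a (chr2:19445663-19447501, + strand, mm10) had 43.1, 31.2 and 67.9 CPM in acinar-gated cells of tumours 1, 2 and 3, against 0.755, 0 and 0.815 CPM in ductal-gated cells. The gates did not overlap, but tumour 2 rests on 5 UMIs against 0 and its acinar level has a 95% Poisson interval of 10.1 to 72.8 CPM. Because the ductal sums are this low, fitted differences of the first 4 factors depend on edgeR's prior count, and the ratio of UMIs is given beside each. Over the 3 tumours 368 UMIs stood against 2, an 85.9-fold ratio with a counting interval of 23.6 to 712. The log2 difference was 6.04 ± 0.49 (SE, adjusted p = 1.57e-18, edgeR), and 6.74 at a minimum of 1500 UMIs per cell. All such intervals cover counting error only. The p-values come from the spread left between sums after the block on tumour, which edgeR moderates across genes. They do not measure the spread between these 3 tumours.

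Rbpjl (chr2:164403141-164415448, + strand) had 149, 74.9 and 142 CPM in acinar-gated cells, against 0.755, 0 and 5.71 CPM in ductal-gated cells. Every acinar sum lay above every ductal sum, tumour 2 being the lowest of the acinar sums. The 824 UMIs of acinar-gated cells against 8 gave a ratio of 48.1 (24.3 to 112) and a log2 difference of 5.61 ± 0.34 (adjusted p = 6.88e-25, edgeR). Tumour 3 held 7 of the 8 ductal UMIs, and the difference was 7.21 without tumour 3 and 4.79 without tumour 1. Matn4, a matrix protein gene on the opposite strand, overlaps 2020 of the 12308 bases of Rbpjl at the 5' ends of both genes. It had 377 UMIs in acinar-gated cells and 2 in ductal-gated cells (log2 6.20 ± 0.51), and since no source used here says whether counting used the strand, reads in the overlap cannot be told apart.

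Nr5a2 (chr1:136842571-136960448, - strand) had 24.8, 24.97 and 28.4 CPM in acinar-gated cells, against 0, 0 and 0.815 CPM in ductal-gated cells. It was the most even of the 4 across tumours in the acinar gate, at 26.0 ± 2.0 CPM (SD, n = 3). Tumour 2 rests on 4 UMIs against 0, with a counting interval of the ratio from 0.743 upward. Without barcodes rich in ribosomal RNA locus UMIs the acinar-gated levels ran from 26.2 to 39.2 CPM. The 162 UMIs against 1 gave a ratio of 75.7 whose counting interval ran from 13.4 to 3006. The log2 difference was 5.83 ± 0.71 (adjusted p = 7.70e-11, edgeR), 4.91 without the 5% of cells with the most UMIs and 4.81 with a gate that allowed 0 UMIs of the other pairs.

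Bhlha15 (chr5:144190286-144194441, + strand) had 19.4, 31.2 and 24.4 CPM in acinar-gated cells, against 3.02, 5.55 and 4.89 CPM in ductal-gated cells. Tumour 2 held 5 UMIs against 1, a ratio of 5.63 with a counting interval of 0.630 to 266. The gates did not overlap, and the gap was the smallest among the 4 factors that passed: 139 UMIs against 11, or 5.90-fold (3.20 to 12.1). The log2 difference was 2.54 ± 0.47 (adjusted p = 5.36e-06, edgeR).

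Gata4 (chr14:63198922-63271692, - strand) had 43.1, 43.7 and 43.5 CPM in acinar-gated cells, against 37.8, 22.2 and 33.4 CPM in ductal-gated cells. The acinar sums were nearly alike and the ductal sums lower and more spread, at 31.1 ± 8.0 CPM, but tumour 2 rests on 7 UMIs against 4. Without barcodes rich in ribosomal RNA locus UMIs the acinar sums ran from 32.7 to 57.2 CPM and the ductal sums from 19.0 to 34.2 CPM. With all barcodes, 254 UMIs against 95 gave a ratio of 1.25 (0.983 to 1.60). The log2 difference of 0.47 ± 0.24 did not pass (95% interval -0.01 to 0.95, adjusted p = 0.126, edgeR), and over 15 alternatives its adjusted p ran from 0.0549 to 0.634. The interval leaves room for a difference of almost 1 log2 unit.

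**Figure D1:**
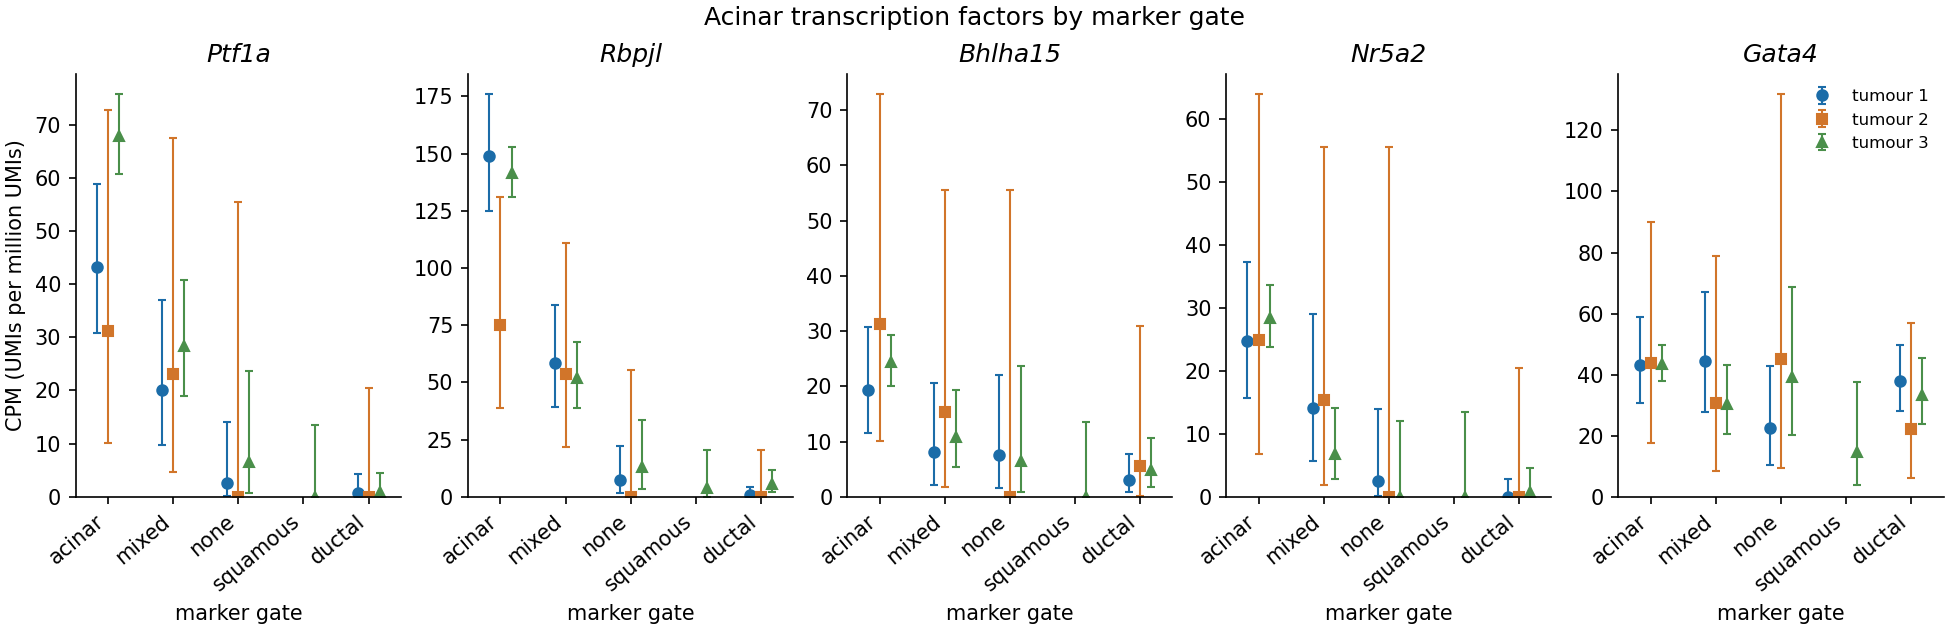
CPM (vertical axis) of each factor in cells of each marker gate (horizontal axis), 1 point per tumour with its 95% Poisson interval, for sums of 20 or more cells. Ptf1a, Rbpjl, Nr5a2 and Bhlha15 stand highest in the acinar gate and low in the ductal gate, mixed cells lie between them, and Gata4 is found in every gate.

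In each tumour, mixed cells lay between the acinar and ductal gates for all factors but Gata4. They held 20.2, 23.1 and 28.4 CPM of Ptf1a, 58.5, 53.8 and 51.8 CPM of Rbpjl and 8.07, 15.4 and 10.8 CPM of Bhlha15. Nr5a2 stood at 14.1, 15.4 and 6.85 CPM there and Gata4 at 44.4, 30.7 and 30.3 CPM. The first 4 were thus below the acinar-gated mean and above the ductal-gated mean. The Gata4 mixed mean of 35.1 CPM also lay between its gate means of 43.4 and 31.1 CPM. Barcodes with 10% or more ribosomal RNA locus UMIs made up 92.9%, 80.0% and 77.5% of mixed barcodes in tumours 1, 2 and 3. Without them tumour 3, where enough mixed cells remained, held 8.39 CPM of Ptf1a in place of 28.4 and 10.1 CPM of Rbpjl in place of 51.8. The part of these barcodes in the mixed levels was not tested. Cells with no gate averaged 3.0 CPM of Ptf1a, 6.9 CPM of Rbpjl, 4.7 CPM of Bhlha15 and 0.8 CPM of Nr5a2, with 35.7 CPM of Gata4. The squamous gate held enough cells in tumour 3 alone, 56 cells with 272304 UMIs. There Ptf1a, Bhlha15 and Nr5a2 had 0 UMIs, where 3 UMIs would give 11.0 CPM, Rbpjl had 1 UMI and Gata4 had 4 UMIs (14.7 CPM, 4.0 to 37.6). A difference from the ductal-gated cells of that tumour was not detectable at this depth for any of the 5.

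Few cells showed any one of these messages. A Ptf1a UMI was seen in 10.6% of the 2410 acinar-gated cells (256) and 0.221% of the 905 ductal-gated cells (2), at median depths of 1588 and 1771 UMIs. For Rbpjl the shares were 20.9% of acinar-gated and 0.773% of ductal-gated cells, for Nr5a2 5.15% and 0.110%, and for Bhlha15 4.85% and 1.22%. With every cell thinned to 1000 UMIs the shares became 5.64% against 0.110% for Ptf1a, 11.3% against 0.221% for Rbpjl, 1.54% against 0% for Nr5a2 and 2.12% against 0.552% for Bhlha15. The order of the gates was the same with and without thinning for these 4. For Gata4 the tumours are given apart, since most acinar-gated cells came from tumour 3 and most ductal-gated cells from tumour 1. A Gata4 UMI was seen in 8.79%, 11.5% and 7.74% of acinar-gated cells of tumours 1, 2 and 3, against 8.60%, 3.81% and 12.3% of ductal-gated cells. After thinning the shares were 4.51%, 5.77% and 3.51% of acinar-gated cells, against 3.80%, 1.90% and 3.00% of ductal-gated cells. Tumour 3 turned its order with thinning, and the counting intervals of the thinned shares overlapped in each tumour.

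At least 1 of Ptf1a, Rbpjl, Bhlha15 and Nr5a2 was seen in 31.8% of acinar-gated cells (766), and 2 or more in 7.18% (173). The matching shares of ductal-gated cells were 2.32% and 0%. Within the acinar gate, 42.2% of cells with a Ptf1a UMI also had one of Rbpjl, against 18.4% of the rest, and the cells with Ptf1a were deeper, with a median of 2109.5 UMIs against 1554. At 1000 UMIs per cell the shares were 20.0% against 12.2% in tumour 1, 0% against 8% in tumour 2 and 14.9% against 10.9% in tumour 3. Only 2 cells of tumour 2 kept a Ptf1a UMI at that depth.

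Barcodes of 10 to 100 UMIs were taken as a guide to RNA outside cells. All barcodes with 1000 or more UMIs also had 10 or more in another library. UMIs of such barcodes may thus be included, and their part was not tested. Barcodes of 10 to 100 UMIs held 21.3 ± 9.3 CPM of Ptf1a, 60.6 ± 26.7 CPM of Rbpjl, 10.7 ± 2.8 CPM of Bhlha15 and 5.63 ± 0.92 CPM of Nr5a2 (SD, n = 3 libraries). The ductal-gated means of 0.524, 2.15, 4.49 and 0.272 CPM lay below these, that of Bhlha15 least far. Mixed means of 23.9, 54.7 and 11.4 CPM for Ptf1a, Rbpjl and Bhlha15 lay within 1 SD of the level in those barcodes, and that of Nr5a2, at 12.1 CPM, lay above it. Acinar-gated means of 47.4, 121.8, 24.997 and 26.0 CPM lay above it for all 4. How much of the UMIs in any gate came from RNA outside cells was not tested.

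The level of digestive enzymes gave a second ordering that does not use the ductal markers. The enzyme list included the genes of the acinar gate, so this ordering is not independent of that gate. An alternative left the gate genes out of the list. Cells of each tumour were ranked by the share of their UMIs from 28 enzyme genes and split into 4 bins of equal size, bin 1 having the least enzyme RNA. In tumour 2 the median share was 0% in bin 1 and in bin 2. Cells tied at 0% were thus split between these bins, and a step from bin 1 to bin 2 there is not an ordering by enzyme for them. Of 7582 genes tested, 6.55% were higher in bin 4 than in bin 1 and 10.0% lower. Ptf1a, Rbpjl, Nr5a2 and Bhlha15 passed the filter on low counts through sums of the higher bins. Their number among the calls is thus no evidence in itself.

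Ptf1a from bin 1 to bin 4 stood at 1.57, 0, 21.1 and 49.8 CPM in tumour 1, at 0, 0, 4.70 and 58.9 CPM in tumour 2 and at 10.1, 73.8, 49.7 and 79.1 CPM in tumour 3. Bin 4 was the highest in every tumour, and tumour 3 was already high in bin 2. Acinar-gated cells made up 29.4%, 20.6% and 69.1% of the cells of tumours 1, 2 and 3. Bin 4 differed from bin 1 by 3.96 ± 0.77 (log2, adjusted p = 0.00102, edgeR), by 5.10 without tumour 3, and by 2.68 to 7.13 over 15 alternatives, all of which passed.

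Rbpjl stood at 1.57, 0, 63.4 and 172 CPM in tumour 1, at 0, 0, 56.4 and 58.9 CPM in tumour 2 and at 22.0, 119, 132 and 171 CPM in tumour 3. It was at 0 in bin 2 of tumours 1 and 2 and high in that of tumour 3, and no bin 4 lay below the bin 3 of its tumour. Bins 4 and 1 differed by 4.26 ± 0.76 (adjusted p = 0.000521, edgeR), by 6.57 without tumour 3 and by 3.28 without tumour 1. The 15 alternatives gave 3.20 to 6.57, and all passed.

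Nr5a2 stood at 0, 0, 15.1 and 28.2 CPM in tumour 1, at 0, 0, 18.8 and 16.8 CPM in tumour 2 and at 6.63, 22.7, 20.3 and 33.6 CPM in tumour 3. Bin 1 of tumours 1 and 2 had 0 UMIs, and bin 4 exceeded bin 1 by 3.16 ± 0.71 (adjusted p = 0.00373, edgeR), by 2.56 without tumour 1, and by 2.39 to 5.29 over 14 alternatives. DESeq2 gave an adjusted p of 0.0503 for this difference, within a range of 1.08e-08 to 0.0503 over the alternatives.

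Bhlha15 stood at 4.70, 3.60, 12.1 and 18.8 CPM in tumour 1, at 0, 8.57, 14.1 and 33.7 CPM in tumour 2 and at 5.23, 19.4, 20.3 and 34.1 CPM in tumour 3. Bin 4 was the highest in each tumour and lay above every bin 1. Its difference was 2.86 ± 0.52 (adjusted p = 0.000559, edgeR), and 1.84 to 3.25 over 14 alternatives, all of which passed.

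Gata4 stood at 36.0, 36.9, 33.2 and 48.4 CPM in tumour 1, at 20.5, 34.3, 37.6 and 33.7 CPM in tumour 2 and at 36.3, 43.4, 29.4 and 46.1 CPM in tumour 3. No bin stood apart and the tumours crossed. Bin 4 exceeded bin 1 by 0.54 ± 0.28, which did not pass (adjusted p = 0.219, edgeR). It passed in 2 of 15 alternatives, at 0.73 without the filter on shared barcodes (adjusted p = 0.0426) and at 0.90 without the 25% of cells richest in ribosomal RNA locus genes (adjusted p = 0.0450), and the highest adjusted p was 0.599.

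**Figure D2:**
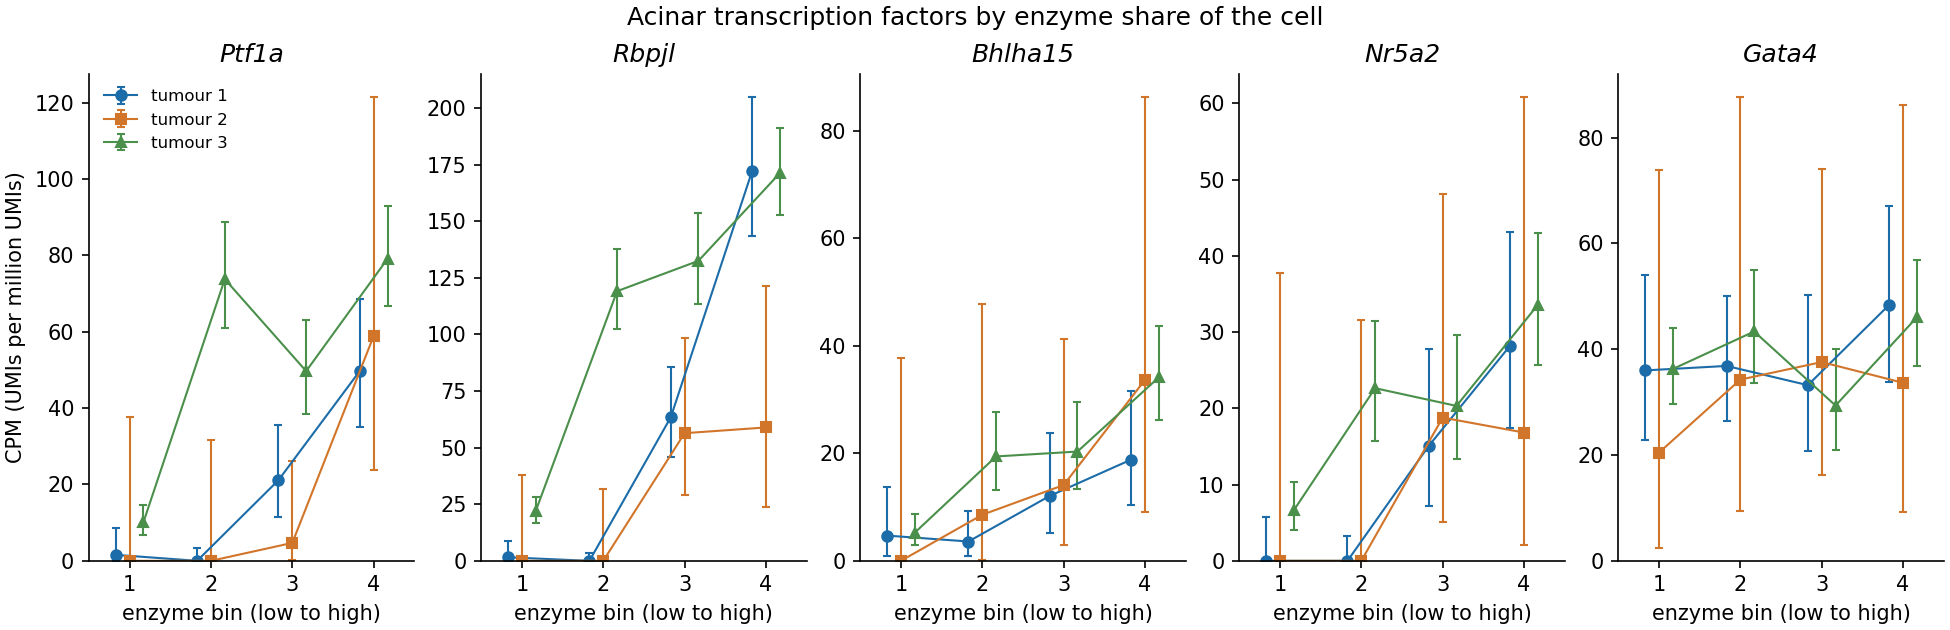
CPM (vertical axis) of each factor in 4 bins of cells ranked by enzyme share within their tumour (horizontal axis, low to high), 1 line per tumour with 95% Poisson intervals. Ptf1a, Rbpjl and Nr5a2 are at 0 or 1.57 CPM in bins 1 and 2 of tumours 1 and 2 and high from bin 2 on in tumour 3, while Gata4 stays between 20.5 and 48.4 CPM.

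The bins also differed in ribosomal RNA locus genes. Barcodes with 10% or more of these UMIs made up 1.68%, 4.47%, 81.6% and 29.7% of bins 1 to 4 of tumour 1, 0%, 1.59%, 42.9% and 34.9% in tumour 2 and 7.85%, 83.7%, 89.6% and 46.8% in tumour 3. With these barcodes left out, a step added once the data had been seen, bin 4 differed from bin 1 by 7.13 for Ptf1a, 5.61 for Rbpjl, 5.29 for Nr5a2, 2.47 for Bhlha15 and 0.80 for Gata4. Between the gates the same step gave 6.08, 5.81, 5.84, 2.51 and 0.57. The first 4 thus differed with these barcodes left out in both comparisons, and Gata4 did not pass in either (adjusted p = 0.0604 between bins and 0.0549 between gates, edgeR). The part of these barcodes in the pattern across bins 2 and 3 was not tested.

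Within the acinar gate, Rbpjl alone of the 4 factors tested passed for the enzyme level, and not under every alternative. Acinar-gated cells of each tumour were split at the median enzyme share into high-enzyme and low-enzyme cells, and of 5046 genes tested 1.13% were higher in high-enzyme cells and 1.53% lower. Rbpjl had 212, 144 and 160 CPM in high-enzyme cells, against 89.9, 44.8 and 123 CPM in low-enzyme cells. It was higher in the high-enzyme cells of each tumour, and the 2 sets of sums did not overlap. Its log2 difference of 0.67 ± 0.18 passed with an adjusted p of 0.0408 (edgeR), but it did not pass in 5 of 16 alternatives, among them leaving out tumour 1 (0.57) and DESeq2 (0.86, adjusted p = 0.366). Over the alternatives the adjusted p ran from 0.000117 to 0.9999. It was 1.19 without tumour 3.

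Ptf1a had 57.9, 61.8 and 74.0 CPM in high-enzyme cells, against 29.3, 17.9 and 61.9 CPM in low-enzyme cells. The high-enzyme sum was above the low-enzyme sum in each tumour but the sets of sums overlapped, and 0.42 ± 0.21 did not pass (adjusted p = 0.344, edgeR). Nr5a2 had 31.2, 0 and 32.3 CPM in high-enzyme cells, against 18.8, 35.8 and 24.5 CPM in low-enzyme cells, and tumour 2 ran the other way on 0 against 4 UMIs. Its difference was 0.38 ± 0.30 (adjusted p = 0.572, edgeR). Gata4 had 37.9, 61.8 and 41.3 CPM in high-enzyme cells, against 48.1, 35.8 and 45.7 CPM in low-enzyme cells, a difference of -0.16 ± 0.22 (adjusted p = 0.779, edgeR) whose sign turned in 3 of 15 alternatives. Bhlha15 did not pass the filter on low counts here. It had 20.0, 61.8 and 30.6 CPM in high-enzyme cells, against 18.8, 17.9 and 18.3 CPM in low-enzyme cells. Pooled over tumours, its 84 UMIs against 55 gave a ratio of 1.61 (1.13 to 2.30, counting error only). The same ratio was 1.46 (1.27 to 1.68) for Rbpjl and 1.30 (1.05 to 1.60) for Ptf1a. For Nr5a2 it was 1.32 (0.955 to 1.82) and for Gata4 0.899 (0.697 to 1.16). Rich barcodes made up 2.86%, 3.85% and 58.0% of high-enzyme cells and 55.0%, 7.69% and 78.6% of low-enzyme cells. Without them the Rbpjl difference was 1.00 (adjusted p = 0.000117, edgeR).

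Levels among acinar-gated cells also moved with the ribosomal RNA locus share itself, in groups made after the data were seen and so described without a test. Ptf1a had 51.0 and 81.1 CPM in acinar-gated barcodes under 10% in tumours 1 and 3, against 14.9 and 50.9 CPM in those with 10% or more, where tumour 2 had 3 cells. Rbpjl had 176 and 161 CPM under 10%, against 49.6 and 117 CPM. Nr5a2 had 26.2 and 39.2 CPM against 19.8 and 14.4 CPM, Bhlha15 20.7 and 28.4 CPM against 14.9 and 19.2 CPM, and Gata4 45.5 and 57.2 CPM against 34.7 and 25.9 CPM. All 5 factors, Gata4 included, had lower CPM in the rich barcodes of both tumours, on few UMIs for Bhlha15 and Nr5a2 in tumour 1. CPM counts the ribosomal RNA locus genes in its total. Their share of UMIs was 1.61% and 1.24% in barcodes under 10% of tumours 1 and 3, and 35.9% and 29.9% in the rich ones. A gene at an unchanged share of the remaining UMIs would thus also have lower CPM there. The part of this in the levels of the factors was not tested. Among mixed cells of tumour 3 the order was the other way for 4 factors. Ptf1a, Rbpjl, Bhlha15 and Nr5a2 had 8.39, 10.1, 5.04 and 5.04 CPM in the 79 barcodes under 10%, against 56.2, 110, 18.7 and 9.37 CPM in the rich ones, with counting intervals that overlapped for Bhlha15 and Nr5a2. Gata4 had 30.2 CPM against 30.5 CPM. Whether the rich barcodes are cells was not tested.

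**Figure D3:**
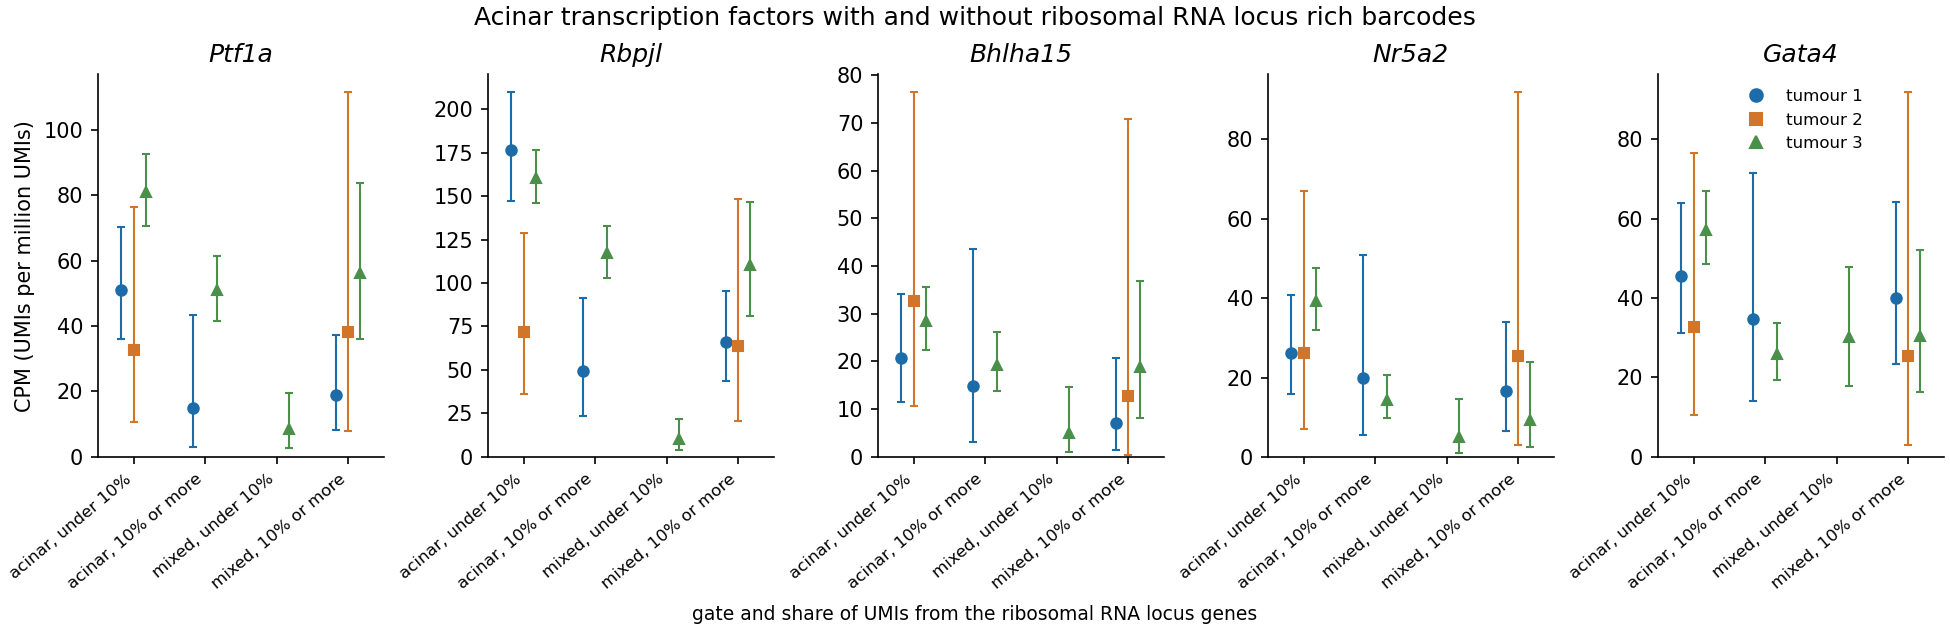
CPM (vertical axis) of each factor in acinar-gated and mixed barcodes with under 10% or with 10% or more of their UMIs from the ribosomal RNA locus genes (horizontal axis), 1 point per tumour with 95% Poisson intervals, for sums of 20 or more barcodes. In the acinar gate the points under 10% lie above those of the same tumour at 10% or more. In the mixed gate tumour 3 shows the reverse for Ptf1a, Rbpjl, Bhlha15 and Nr5a2. CPM counts the ribosomal RNA locus genes in its total.

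CPM also differed with the depth of the cell. In acinar-gated cells of tumour 3 with 1000 to under 2000, 2000 to under 5000 and 5000 or more UMIs, Nr5a2 stood at 17.3, 18.9 and 50.8 CPM and Gata4 at 31.4, 37.0 and 65.3 CPM. Ptf1a stood at 51.1, 69.4 and 90.3 CPM in the same cells and Rbpjl at 112, 164 and 166 CPM, while Bhlha15 stood at 17.8, 33.4 and 27.0 CPM. In tumour 1 Nr5a2 stood at 12.1, 31.1 and 41.6 CPM and Rbpjl at 145, 159 and 140 CPM. Rich barcodes made up 83.2% of the shallowest class of tumour 3 and 1.87% of its deepest one, so depth and ribosomal RNA cannot be told apart in these levels.

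Around the 5 factors, genes of the same network moved in both directions. Of the partners and inhibitors of bHLH proteins (Rbpj, Tcf3, Tcf4, Tcf12 and Id1 to Id4), 2 were higher in acinar-gated cells, 1 was lower, 4 did not pass and Id4 was not tested, beside 17.5% higher and 18.1% lower over all genes tested, with a median log2 difference of 0.25 beside 0.0046 over all genes. The Id proteins block bHLH pairs by binding E proteins. Id2 was higher at 59.3, 37.4 and 126 CPM in acinar-gated cells, against 24.2, 38.8 and 44.8 CPM in ductal-gated cells (1.40 ± 0.23, adjusted p = 4.88e-07, edgeR), and without tumour 3 it was 0.99 and did not pass (adjusted p = 0.0808, of a range over 15 alternatives from 1.89e-09). Its gap was absent in tumour 2. Id3 had 12.9, 0 and 31.1 CPM in acinar-gated cells, against 9.82, 5.55 and 6.52 CPM in ductal-gated cells. Most of its acinar UMIs were in tumour 3, and tumour 2 ran the other way on 0 against 1 UMI. Its difference of 1.58 ± 0.41 passed (adjusted p = 0.00132, edgeR) but not with DESeq2 (adjusted p = 0.147, of a range over 13 alternatives up to 0.199). Id1 was lower, by -0.81 ± 0.19 (adjusted p = 0.000299, edgeR), by -1.56 without tumour 3, and did not pass without the tumour block (adjusted p = 0.152, the highest of 15 alternatives). The E protein genes did not pass, and Rbpj, which takes the place of Rbpjl in the embryonic complex, differed by 0.55 ± 0.27 (adjusted p = 0.104, edgeR).

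Of 10 other regulators of acinar cells, Xbp1 was higher, Hnf4a, Creb3l1 and Mecom were lower, Foxa2 did not pass and 5 were not tested, with a median of -1.15. Xbp1, which drives the unfolded protein response, had 171, 250 and 178 CPM in acinar-gated cells, against 92.2, 83.2 and 117 CPM in ductal-gated cells (0.93 ± 0.16, adjusted p = 2.55e-06, edgeR). Hnf4a, a nuclear receptor of gut and liver epithelium, was lower by -1.56 ± 0.30, the secretory factor Creb3l1 by -1.41 ± 0.26 and the zinc finger factor Mecom by -1.15 ± 0.16. Of 6 genes described downstream of Bhlha15 in mouse, the autophagy receptor Ccpg1 was higher (1.16 ± 0.33), the gap junction gene Gjb1 (-2.14 ± 0.23) and the granule gene Rab3d (-0.74 ± 0.28) were lower, Atp2c2 did not pass and 2 were not tested. Gjb1 stood at 24.8, 31.2 and 18.5 CPM in acinar-gated cells, against 98.2, 155 and 92.1 CPM in ductal-gated cells, and so ran against Bhlha15 in each tumour. The Rab3d call was lost in 8 of 14 alternatives, among them leaving out tumour 2 or tumour 3, and the Ccpg1 call in 2 of 14, one of them leaving out tumour 1 (1.00).

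All 7 secretion genes were higher in acinar-gated cells, with a median of 5.25, beside 17.5% of all genes tested. Cckar, Zg16, Gp2 and Sycn had at most 5 UMIs in any ductal sum and, like the first 4 factors, passed the filter on low counts through other sums, so this count is a description and no evidence in itself. The cholecystokinin receptor gene Cckar led with 123, 99.9 and 97.3 CPM in acinar-gated cells, against 0, 0 and 2.45 CPM in ductal-gated cells (6.57 ± 0.42), followed by Zg16 (6.05 ± 0.67), Cuzd1 (5.30 ± 0.32) and Sycn (5.25 ± 0.35), which encode proteins of the zymogen granule. Without tumour 3 the Cckar difference was 8.79. Without tumour 1 it was 5.53, that of Zg16 5.42 and that of Sycn 4.63, and without tumour 2 that of Cuzd1 was 5.92. Of 8 ductal and progenitor factors, 5 were lower, Hes1 did not pass and 2 were not tested, with a median of -1.03. Onecut2 had 150, 62.4 and 157 CPM in acinar-gated cells, against 716, 860 and 991 CPM in ductal-gated cells (-2.57 ± 0.18); Klf5 (-1.73 ± 0.16), Klf4 (-1.04 ± 0.18) and Pdx1 (-1.01 ± 0.23) followed. Of 4 squamous factors, Gata3 was lower (-3.13 ± 0.59, and -4.31 in the gate with 0 UMIs of other pairs), Trp63 did not pass and 2 were not tested.

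Between enzyme bins 4 and 1 the same lists gave 1 higher and 1 lower of 7 tested partners and inhibitors, 1 higher and 2 lower of 5 tested regulators, 1 higher and 1 lower of 4 tested genes downstream of Bhlha15, 7 higher of 7 secretion genes, 3 lower of 6 tested ductal and progenitor factors, and Gata3 lower as the 1 squamous factor tested. Over all genes tested 6.55% were higher and 10.0% lower there. The count of secretion genes is a description here too, and no evidence in itself. Within the acinar gate, 4 of 7 secretion genes (Sycn, Gp2, Cuzd1 and Tmed6) were higher in high-enzyme cells and Hes1 and Onecut2 were lower, while no partner, regulator or downstream gene passed and no squamous factor was tested. Over all genes tested 1.13% were higher and 1.53% lower there. Hes1, a Notch target named here after its values were seen, differed there by -0.95 ± 0.17 (adjusted p = 0.000938, edgeR), although it did not pass between the gates (0.14 ± 0.16).

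**Figure D4:**
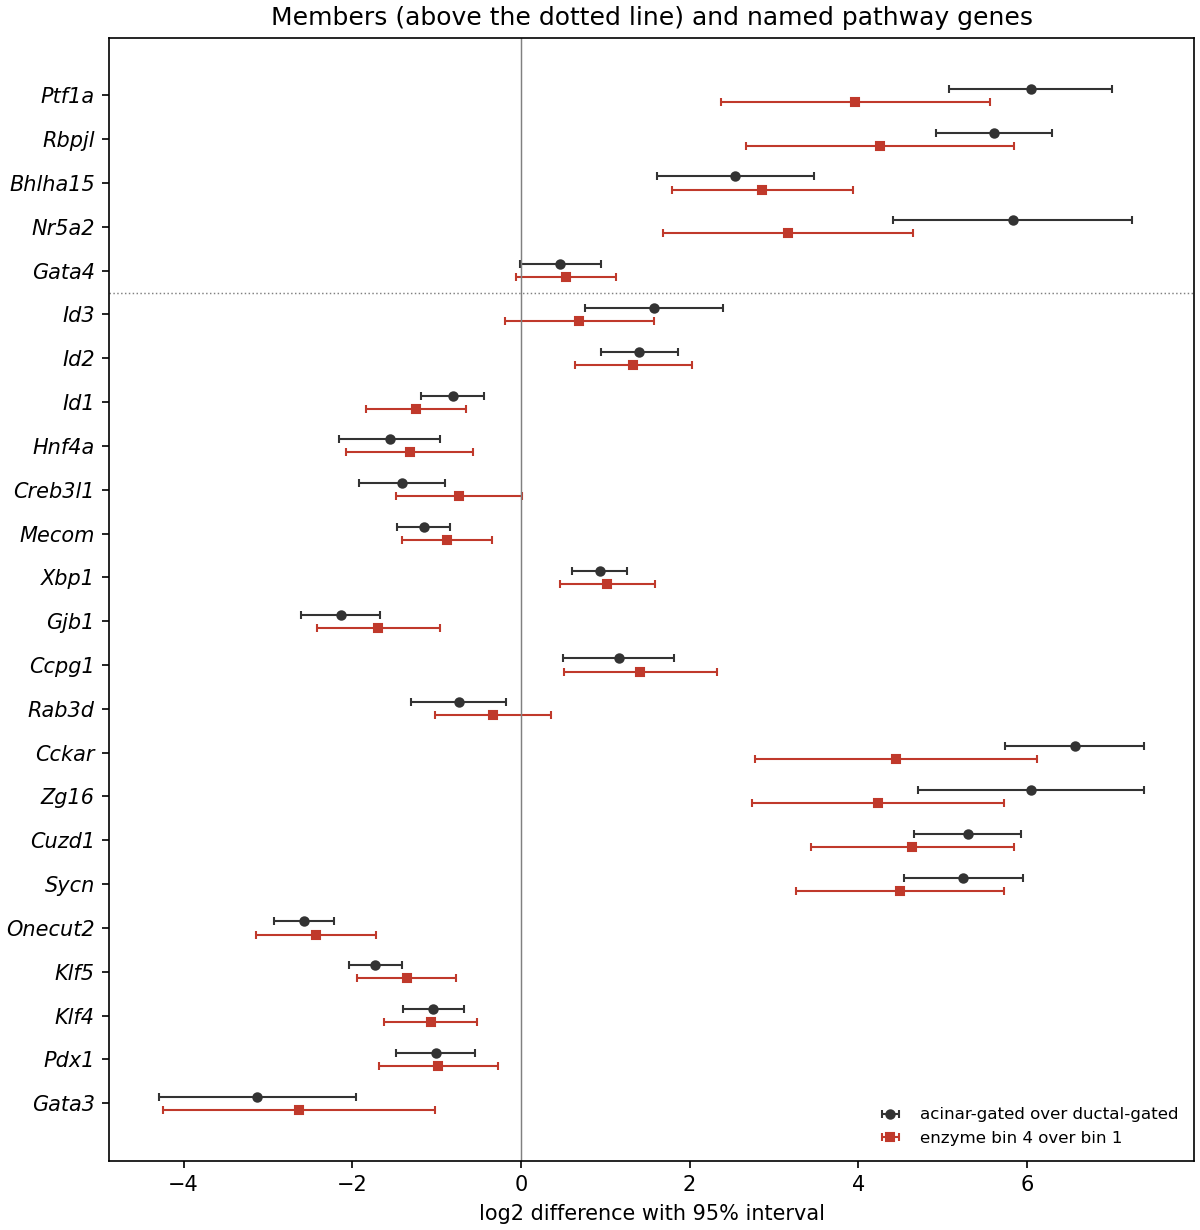
Log2 difference (horizontal axis) with its 95% interval for the 5 factors and the named genes of the surrounding lists (vertical axis), acinar-gated over ductal-gated cells in black and enzyme bin 4 over bin 1 in red. Ptf1a, Rbpjl, Nr5a2 and Bhlha15 lie with the secretion genes right of 0 and the intervals of Gata4 reach below 0 in both comparisons.

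Likeness was described over the 12 sums of 3 tumours by 4 enzyme bins, as Pearson's r of log2(CPM + 5) against 2712 genes with a mean of 50 CPM or more; the sums share libraries and the ranking by enzymes, and no p is given. Rbpjl and Nr5a2 were most like each other among the factors (r = 0.992), followed by Ptf1a with Rbpjl (0.925) and with Nr5a2 (0.904). Bhlha15 lay at 0.847 to 0.869 with these 3, and Gata4 at 0.483 to 0.587 with the other 4. The factors were not held to 50 CPM, and Nr5a2 averaged 13.5 CPM over the sums. Rbpjl and Nr5a2 had at most 1 UMI in bins 1 and 2 of tumours 1 and 2. The part of these low sums in r was not tested. The genes closest to Rbpjl were Reg2 (0.981), Reg3a (0.976) and Cckar (0.972), and the same 3 genes were closest to Nr5a2 (0.983, 0.975 and 0.968). Chst2 (0.967), Cckar (0.965) and Erp27 (0.963) were closest to Ptf1a, and Gcat, Exosc8 and Spink1 (0.951, 0.951 and 0.935) to Bhlha15. For Gata4 the nearest were Ergic2 (0.889), Snrpa (0.858) and Eif1ax (0.858).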

How the data were processed

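UMI counts per gene and barcode of 3 libraries were used as the authors deposited them, with no normalization. They were made with Cell Ranger 3.0.2 per the file headers; the submitters' processing notes name Cell Ranger 3, Seurat 3.1 and mm10, and no source used here gives the annotation. Library totals were 11502184, 9737397 and 16521484 UMIs. Kit versions 1 and 3 both appear in the labels' protocols. No doublet caller was run; cells with markers of 2 kinds were kept apart as mixed, and leaving out the 5% of cells with the most UMIs was an alternative.

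Counts were summed per tumour and group of 20 or more cells and tested with edgeR 4.0.16 (R 4.3.3; filterByExpr, TMM, tumour as a block, Benjamini-Hochberg at 0.05). Sums of all gates (13), all enzyme bins (12) or high-enzyme and low-enzyme cells (6) entered 1 fit, with 6, 6 and 2 residual degrees of freedom. Genes that set a grouping were left out of its counts of genes. SE is the log2 difference over the root of F. Levels have exact Poisson and shares exact Clopper-Pearson 95% intervals, and a count of 0 is read against 3 counts. On simulated counts 4-fold changes were recovered in 95.4%, 92.7% and 100% of genes and 2-fold changes in 64.9%, 61.2% and 74.1% for gates, bins and the enzyme split of acinar-gated cells. These rates were not given apart for counts as low as those of the first 4 factors in ductal-gated cells. The biological coefficient of variation in the real fits was 0.121, 0.203 and 0.105. The simulated counts used the same coefficient for every comparison, below each of these values and furthest below that of the bins. They held no difference between tumours. The recovery rates thus belong to a smaller spread than that of the real fits. Each tumour is 1 animal, so its groups are paired; deviations from the group means correlated at 0.117, 0.0537 and 0.335 for the gates. DESeq2 1.42.0 was an alternative. Coordinates are GENCODE's for mm10, matched by gene identifier; Amy2b of 29 enzymes had no entry under that name.

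The 5 factors, the gene lists and the tests were chosen with earlier results of these data known. Named beyond the factors were genes past the threshold between the gates and among the 4 largest differences of their list, and the 3 genes most like each factor.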

Additional observations from a re-analysis of the deposited data

Results flagged for a closer look

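Barcodes of 10 to 100 UMIs, which entered no comparison, held RNA of all 5 factors above the limit that a count of 0 allows. Ptf1a stood there at 19.7, 12.8 and 31.3 CPM in libraries 1, 2 and 3, a mean of 21.3 CPM. Rbpjl stood at 53.9, 37.8 and 90.0 CPM, a mean of 60.6 CPM, and was highest in library 3, as was Ptf1a. Bhlha15 averaged 10.7 CPM and Nr5a2 5.63 CPM, with smaller gaps between libraries (7.85 to 13.4 and 5.00 to 6.69 CPM). Gata4 averaged 18.3 CPM and was highest in library 1, at 25.6 CPM.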

How the results depend on the processing

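The comparisons rest on 3 tumours, of which tumour 2 gave 253 cells, and on 1 to 11 UMIs per factor in the ductal gate for all factors but Gata4. Of 479 values of 33 gene results under alternatives, 453 kept direction and call, 21 lost the call, 2 gained it and 3 changed sign: Gata4 between high-enzyme and low-enzyme cells, at -0.16, was 0.074 without the 25% of cells richest in ribosomal RNA locus genes, 0.096 without barcodes of 10% or more of these UMIs (chosen after seeing the data) and 0.31 in a gate with 0 UMIs of the other pairs. Between the gates, Ptf1a, Rbpjl, Bhlha15 and Nr5a2 passed in every alternative that tested them. Without tumour 3 Ptf1a, Bhlha15 and Nr5a2, and without tumour 1 Bhlha15 and Nr5a2, fell under the filter on low counts. Without the replicate block, that is without pairing groups by tumour, calls numbered 1560 in place of 2798 between the gates, 738 in place of 1256 between enzyme bins and 3 (Erp27, Gm12840 and Klk1) in place of 134 between high-enzyme and low-enzyme cells. In the block fit Rbpjl between high-enzyme and low-enzyme cells had an adjusted p of 0.0408, and 0.834 without it; it also lost its call without the 5% of cells with the most UMIs (0.404), in a gate of 5 UMIs (0.118), with DESeq2 (0.366) and without tumour 1 (0.9999). Calls between high-enzyme and low-enzyme cells numbered 29 with DESeq2 (17 higher and 12 lower, against 57 and 77), 308 without the filter on shared barcodes, 235 at a minimum of 1500 UMIs and 71 without the 5% of cells with the most UMIs. Leaving out 1 tumour gave 1042 to 3345 calls between the gates, 565 to 967 between enzyme bins and 36 to 293 between high-enzyme and low-enzyme cells. The cause of these changes was not tested.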

Other observations

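Acinar-gated cells with 2 or more UMIs of 8 cell cycle genes carried the factors as well, in groups made after the data were seen. In tumour 3 Ptf1a stood at 83.3 CPM in such cells and 49.5 CPM in the rest, Rbpjl at 166 and 113 CPM, Nr5a2 at 32.2 and 23.9 CPM, Bhlha15 at 27.9 and 20.2 CPM and Gata4 at 50.0 and 35.8 CPM. In tumour 1 Rbpjl stood at 167 and 123 CPM and Bhlha15 at 16.5 and 23.6 CPM. Cycling cells were deeper in tumour 3 (medians of 1931 and 1475.5 UMIs) and held fewer ribosomal RNA locus rich barcodes (50.4% and 78.0%), and the part of these in the levels was not tested.

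Nr0b2, the nuclear receptor partner known to repress Nr5a2, was named after its values were seen. It had 5, 1 and 31 UMIs in acinar-gated cells and 0 in ductal-gated cells of all 3 tumours, and it did not pass the filter on low counts.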
